A study of Homo sapiens with 8 samples.

Results

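The NF-kB subunits and their feedback inhibitors were followed as 10 transcripts in PC3, an established line of human prostate cancer cells. They were taken from the table by gene name, as NFKB1, NFKB2, RELA, RELB, REL, NFKBIA, NFKBIB, NFKBIE, NFKBIZ and TNFAIP3, and all 10 were found among the 58735 genes of the table. RNA was sequenced after poly(A) selection in 4 libraries labelled siPRMT7, whose genotype label is PRMT7 knockdown, and 4 labelled siCtrl, whose genotype label is WT. Cells of both groups were lipofected with synthetic RNA and kept 48 h in culture, and nothing else distinguishes the groups in the labels. The library names carry the prefix sh in place of si, and how many silencing RNAs were used, or what sequences they had, the labels do not say. Nor do the labels say whether the 4 libraries of a group came from separate cultures, so p-values measure the spread between these libraries, which may be technical. In such bulk RNA, fewer cells with a transcript and less of it per cell cannot be told apart.

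NF-kB is a family of dimeric transcription factors. RELA (p65), RELB and REL (c-Rel) carry a transactivation domain, and NFKB1 and NFKB2 encode the precursors p105 and p100, which are processed to the DNA-binding partners p50 and p52. In resting cells IkB proteins, encoded among others by NFKBIA, NFKBIB and NFKBIE, hold the dimers in the cytoplasm until a kinase complex marks the inhibitor for degradation. Several of these genes are themselves induced by NF-kB, which makes the inhibitors a negative feedback loop. PC3 is a line known for NF-kB activity without added stimulus.

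Short stretches upstream of RefSeq transcript starts are shown for 7 members because feedback of this kind is known to act through NF-kB sites. Of the 10 members, 8 matched a window in the RefSeq promoter table (GRCh38.p14), all but RELB and NFKBIE. A window runs from 250 bases before a start to 50 after it. Each line reads 5′ to 3′ on the strand of the gene, and capitals mark runs of the 10-base NF-kB consensus found on either strand, with overlapping matches joined. Of 11 stretches that held a match before a start, 8 are shown.
TNFAIP3, chr6:137867188-137867217, plus strand: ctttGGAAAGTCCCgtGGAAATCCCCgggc
NFKB2, chr10:102394462-102394491, plus strand: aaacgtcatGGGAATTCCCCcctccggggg
NFKB2, chr10:102395674-102395703, plus strand: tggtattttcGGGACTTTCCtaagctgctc
NFKBIA, chr14:35404796-35404855, minus strand: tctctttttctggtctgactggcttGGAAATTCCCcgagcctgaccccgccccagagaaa
NFKBIB, chr19:38899932-38899961, plus strand: ggcgtggtgGGGAATTTCCCgcagggcgga
NFKBIZ, chr3:101827742-101827801, plus strand: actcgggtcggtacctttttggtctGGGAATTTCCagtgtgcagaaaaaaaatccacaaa
NFKB1, chr4:102501300-102501329, plus strand: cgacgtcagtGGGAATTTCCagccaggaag
REL, chr2:60881518-60881547, plus strand: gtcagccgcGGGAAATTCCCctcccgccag
The NFKBIA and NFKBIZ stretches touch no exon in GENCODE release 29, and each of the others touches an annotated exon of its own gene. Counted from the RefSeq start of its window, the TNFAIP3 pair runs from -67 to -46 and the NFKBIA match from -81 to -72. Of the 14 windows of these members 9 held a match, from 7 of the 8 genes, and the windows of RELA held none. Among all 35116 windows the consensus was found in 11.3%, and among all genes with a window in 13.3%. A match describes the letters in the window and does not show binding.

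PRMT7, the targeted arginine methyltransferase, differed little between the groups. It had 4.62, 4.31, 5.01 and 4.82 FPKM (fragments per gene length and library size) in siPRMT7 replicates 1 to 4. In siCtrl replicates 1 to 4 it had 5.24, 4.86, 5.10 and 5.25 FPKM. Below every siCtrl library lay 3 of the 4 siPRMT7 libraries. The mean was 4.69 ± 0.298 FPKM in siPRMT7 and 5.11 ± 0.183 FPKM in siCtrl libraries (SD, n = 4 each), and the difference did not pass a two-sided exact permutation test (p = 0.0571, where 70 assignments allow 0.0286 at best), so each result compares the libraries as labelled.

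The libraries held 14526030 to 15724862 fragments. Libraries of one group differed beyond counting noise, and siPRMT7 replicate 2 stood apart, at 28.4 on the first principal component against -11.9 to 7.36 for the other 7. Ribosomal protein genes took 3.91% of its fragments and 2.95 to 3.43% of those of the others. The line's markers KRT8, KRT18 and VIM were at 48.97 FPKM or more in every library, and KLK3 had 0 fragments. Of 8 markers of immune, endothelial and fibroblast cells CD3E was at 0 in all libraries, and their summed level was 9.98 to 11.3 FPKM in siPRMT7 and 9.88 to 11.6 FPKM in siCtrl libraries, most of it COL1A1 and PECAM1. The part of these markers and of siPRMT7 replicate 2 in the results was not tested, beyond the values given without that library.

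The family was expressed over a wide range of levels per gene length. For every gene checked that length equalled all its annotated exonic bases, so comparisons of level between genes depend on the annotation. NFKBIA was the highest, with 48.5 ± 3.34 FPKM in siPRMT7 and 44.3 ± 2.47 FPKM in siCtrl libraries (SD, n = 4 each). RELA was next, with 30.9 ± 2.63 and 29.95 ± 1.61 FPKM in siPRMT7 and siCtrl libraries. Below them NFKBIZ, TNFAIP3, NFKBIB and NFKB2 had group means of 14.3 to 17.8 FPKM, and in both groups the library values of each overlapped those of its neighbour in the order. RELB, NFKBIE and NFKB1 had group means of 8.44 to 11.7 FPKM. In siCtrl libraries RELB overlapped both NFKBIE and NFKB1, whereas in siPRMT7 libraries the ranges of the 3 genes were separate. REL was lowest, with 0.320 ± 0.0805 FPKM in siPRMT7 and 0.367 ± 0.104 FPKM in siCtrl libraries.

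**Figure D1:**
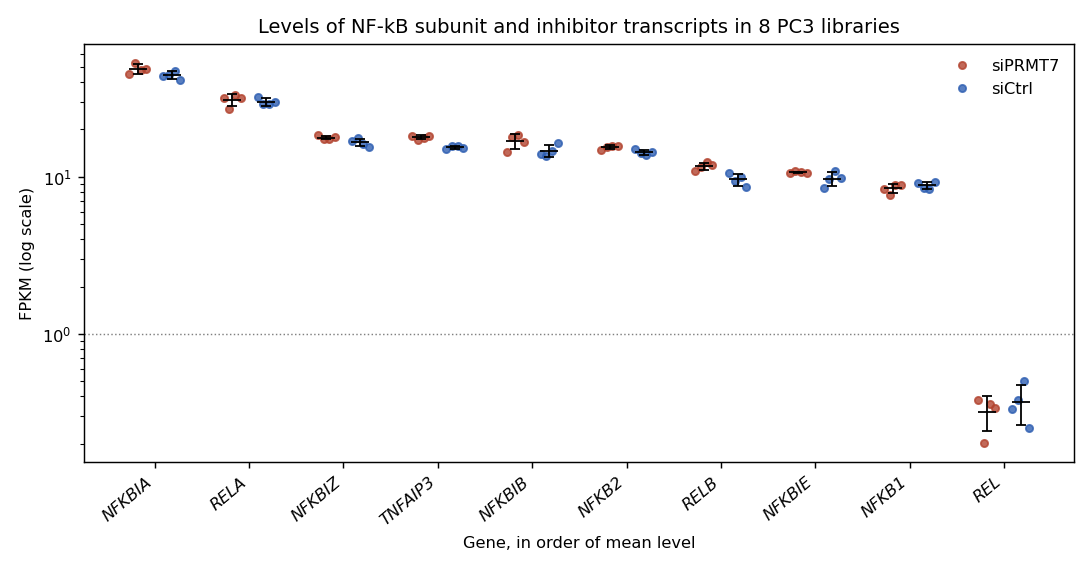
Levels of the 10 transcripts in FPKM on a log axis, with 1 point per library, siPRMT7 left of siCtrl, and the mean ± SD of 4 libraries in black; the dotted line is 1 FPKM. NFKBIA and RELA are the highest, REL lies below 1 FPKM in all libraries, and the groups are separate for TNFAIP3 and RELB.

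Of the 10 members 9 were tested, all but REL, in a limma fit over 13436 genes with at least 1 FPKM in at least 4 libraries. None passed an adjusted p of 0.05, beside 0.0149% of all genes called higher and 0% called lower. At an unadjusted p under 0.05 there were 3 members, TNFAIP3, RELB and NFKB2, all higher in siPRMT7 libraries, where 7.67% of all genes tested were higher and 5.49% lower at that level. The siPRMT7 and siCtrl libraries did not overlap for 2 members, TNFAIP3 and RELB, both higher, as for 4.14% of all genes tested (4.43% were lower without overlap, 8.57% in either direction). Fold changes were positive for 8 of the 9 and negative for 1, where 49.5% of all genes were above and 50.5% below 0, with a median log2 fold change of 0.13 on the log2(FPKM + 1) scale, beside -0.0015 over all genes tested. When each library was brought to the same total (TPM scale), 0 members were without overlap (3.1% of all genes). On that scale TNFAIP3 was at 15.97 in siPRMT7 replicate 2, under 16.1 in siCtrl replicate 2. Without siPRMT7 replicate 2 TNFAIP3 and RELB were again without overlap on that scale (5.05% of all genes).

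The inhibitor TNFAIP3 (A20), an enzyme that edits ubiquitin chains and shuts off signalling to NF-kB, had the smallest p of the family. It had 18.2, 17.1, 17.7 and 18.2 FPKM in siPRMT7 replicates 1 to 4, against 15.0, 15.6, 15.6 and 15.3 FPKM in siCtrl replicates 1 to 4. Every siPRMT7 library lay above every siCtrl library, with 1119 to 1428 fragments behind each value. The mean was 15.8% higher, a log2 fold change of 0.20 with a 95% interval from 0.11 to 0.29 (limma, p = 0.000572, adjusted p = 0.143, exact permutation p = 0.0286, the smallest possible). By p it ranked 53 among the genes tested. The limma adjusted p was 0.0359 with library weights, which passed (0.342% of all genes were then called higher), and ran from 0.0359 to 0.382 over the alternatives. TNFAIP3 (ENSG00000118503, GRCh38 chromosome 6, 137867188 to 137883312, plus strand) shares 95 of 5051 exonic bases with AL357060.1 on the opposite strand.

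RELB, the transactivating subunit that pairs with p52 in the noncanonical branch, showed the largest fold change of the 9. Its values were 10.9, 11.5, 12.4 and 11.9 FPKM in siPRMT7 replicates 1 to 4, against 10.6, 9.33, 9.94 and 8.63 FPKM in siCtrl replicates 1 to 4. The groups were separate, but the gap between siPRMT7 replicate 1 and siCtrl replicate 1 was small. The mean was 21.1% higher, a log2 fold change of 0.25 with an interval from 0.11 to 0.40 (limma, p = 0.00375, adjusted p = 0.208, exact permutation p = 0.0286). Between 380 and 564 fragments lay behind each value, a counting error of 5.13% at the lowest. The gene (ENSG00000104856) lies on chromosome 19 from 45001430 to 45038198, plus strand, and shares no exonic base with another gene.

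NFKB2 (chromosome 10, 102394110 to 102402529, plus strand), the p100 precursor and partner of RELB, was at 14.8, 15.5, 15.6 and 15.8 FPKM in siPRMT7 replicates 1 to 4, against 14.9, 14.2, 13.7 and 14.3 FPKM in siCtrl replicates 1 to 4. Above every siCtrl library lay 3 siPRMT7 libraries, and siPRMT7 replicate 1 lay just under siCtrl replicate 1. The log2 fold change was 0.11 with an interval from 0.01 to 0.20 (limma, p = 0.0319, adjusted p = 0.337, exact permutation p = 0.0571).

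The canonical subunits overlapped between the groups. RELA, the main transactivating subunit of the canonical pathway, had 31.6, 27.1, 33.1 and 31.9 FPKM in siPRMT7 replicates 1 to 4, against 32.3, 28.9, 28.9 and 29.7 FPKM in siCtrl replicates 1 to 4. Among the 8 libraries siPRMT7 replicate 2 was the lowest and siPRMT7 replicate 3 the highest. Its log2 fold change of 0.04 had an interval from -0.11 to 0.19 (limma, adjusted p = 0.788), which holds changes of either sign. NFKB1, the p105 precursor of p50, had 8.35, 7.68, 8.82 and 8.92 FPKM in siPRMT7 replicates 1 to 4, against 9.18, 8.42, 8.37 and 9.32 FPKM in siCtrl replicates 1 to 4. It was the 1 tested member with a negative fold change (-0.06, interval from -0.19 to 0.07, limma, adjusted p = 0.666), and again siPRMT7 replicate 2 was lowest. Without that library the RELA mean was 32.2 and the NFKB1 mean 8.70 FPKM in siPRMT7 libraries, and the log2 fold changes were 0.10 for RELA and -0.02 for NFKB1. With any 1 library left out they ran from 0.01 to 0.10 for RELA and from -0.08 to -0.02 for NFKB1. REL, a subunit best known from lymphoid cells, had 0.381, 0.202, 0.359 and 0.338 FPKM in siPRMT7 replicates 1 to 4, against 0.335, 0.380, 0.501 and 0.251 FPKM in siCtrl replicates 1 to 4. The groups overlapped throughout. With 40 to 100 fragments per library and 5702 of its 13170 exonic bases shared with AC010733.2 on the same strand, the level of REL is uncertain. On GRCh38, RELA lies on chromosome 11 from 65653596 to 65663094 (minus strand), NFKB1 on chromosome 4 from 102501329 to 102617302 (plus strand) and REL on chromosome 2 from 60881521 to 60931610 (plus strand).

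Among the cytoplasmic inhibitors, NFKBIA (IkB-alpha), the classical rapid feedback inhibitor, had 44.9, 52.9, 47.7 and 48.5 FPKM in siPRMT7 replicates 1 to 4, against 44.0, 44.6, 47.4 and 41.3 FPKM in siCtrl replicates 1 to 4. Above every siCtrl library lay 3 of the 4 siPRMT7 libraries, and the highest was siPRMT7 replicate 2. The log2 fold change of 0.13 had an interval from -0.01 to 0.26 (limma, adjusted p = 0.396). NFKBIB (IkB-beta), an inhibitor degraded more slowly, had 14.4, 17.8, 18.4 and 16.5 FPKM in siPRMT7 replicates 1 to 4, against 13.9, 13.5, 14.6 and 16.3 FPKM in siCtrl replicates 1 to 4. Here too 3 siPRMT7 libraries lay above all siCtrl libraries, with siPRMT7 replicate 1 among the siCtrl values. Relative to its mean its SD was the widest of the tested members in siPRMT7 libraries (16.8 ± 1.80 FPKM, against 14.6 ± 1.25 FPKM in siCtrl libraries, SD, n = 4 each), and the interval of its log2 fold change of 0.19 ran from just under 0 to 0.38 (limma, adjusted p = 0.379). NFKBIA lies on chromosome 14 from 35401511 to 35404749 (minus strand) and NFKBIB on chromosome 19 from 38899700 to 38908893 (plus strand), where it shares 40 exonic bases with SIRT2 on the opposite strand.

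NFKBIE (IkB-epsilon), an inhibitor with delayed induction, had 10.6, 10.8, 10.7 and 10.6 FPKM in siPRMT7 replicates 1 to 4, against 8.54, 9.67, 10.9 and 9.75 FPKM in siCtrl replicates 1 to 4. The siPRMT7 libraries lay close together, and siCtrl replicate 3 was above all of them. NFKBIZ (IkB-zeta), a nuclear member of the family that acts as a coactivator at a subset of target genes, had 18.3, 17.3, 17.4 and 17.8 FPKM in siPRMT7 replicates 1 to 4, against 17.0, 17.5, 16.2 and 15.4 FPKM in siCtrl replicates 1 to 4. Of its siPRMT7 libraries 2 exceeded every siCtrl library. The log2 fold changes were 0.13 for NFKBIE (interval from -0.02 to 0.27) and 0.10 for NFKBIZ (interval from -0.01 to 0.20), with limma adjusted p of 0.417 and 0.420. Without siCtrl replicate 1, the lowest library, the log2 fold change of NFKBIE was 0.07. NFKBIE lies on chromosome 6 from 44258166 to 44265788 (minus strand) and NFKBIZ on chromosome 3 from 101827991 to 101861022 (plus strand).

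**Figure D2:**
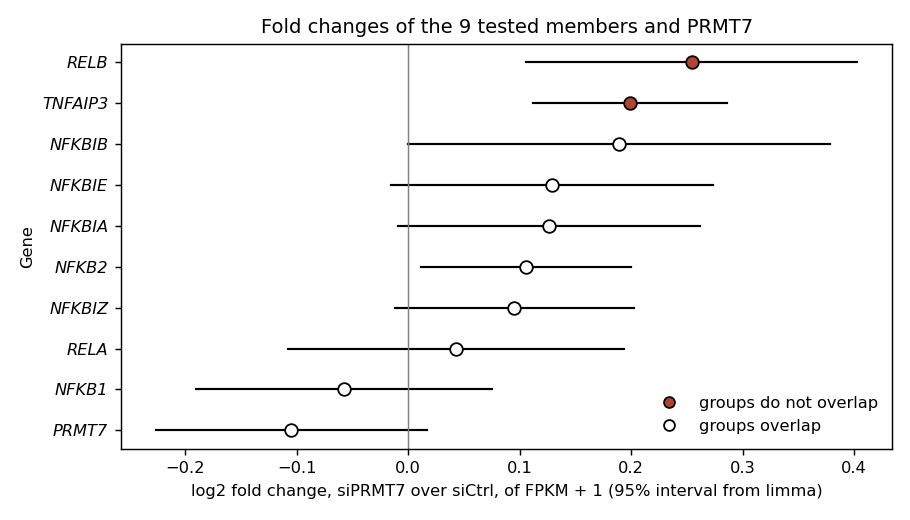
Log2 fold change of FPKM + 1, siPRMT7 over siCtrl, for the 9 tested members and PRMT7, with 95% intervals from limma; filled points mark genes whose groups do not overlap. The intervals of RELB, TNFAIP3 and NFKB2 lie above 0, and those of RELA, NFKB1, NFKBIA, NFKBIB, NFKBIE, NFKBIZ and PRMT7 hold 0.

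The libraries did not all contribute in the same way. The median of the 9 tested members, taken as the difference from the siCtrl mean on the log2(FPKM + 1) scale, was 0.08, 0.14, 0.13 and 0.13 in siPRMT7 replicates 1 to 4, against 0.04, -0.01, 0.01 and -0.01 in siCtrl replicates 1 to 4. In FPKM every siPRMT7 library was thus above every siCtrl library in this median, and siPRMT7 replicate 1 was nearest to the siCtrl values. This separation depended on how libraries were scaled to each other. On the TPM scale siPRMT7 replicate 2 lay under siCtrl replicate 1 for RELA, NFKB1, NFKB2, RELB and NFKBIZ. It lay above siCtrl replicate 1 for NFKBIA, NFKBIB, NFKBIE and TNFAIP3. In FPKM siPRMT7 replicate 1 had the lowest NFKBIA, NFKBIB, NFKB2 and RELB of its group. Without it the groups did not overlap for 5 members, TNFAIP3, RELB, NFKB2, NFKBIA and NFKBIB, but the share of all genes tested that were higher without overlap was then 10.7%. Without siCtrl replicate 3 there were 4 such members, TNFAIP3, RELB, NFKBIA and NFKBIE (7.1% of all genes). Without siPRMT7 replicate 2 there were again TNFAIP3 and RELB (5.97% of all genes). The same 2 remained without siPRMT7 replicate 3 (4.99%), siPRMT7 replicate 4 (6.01%) or siCtrl replicate 4 (5.27%), joined by NFKB2 without siCtrl replicate 1 (5.77%) and by NFKBIZ without siCtrl replicate 2 (5.49%).

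**Figure D3:**
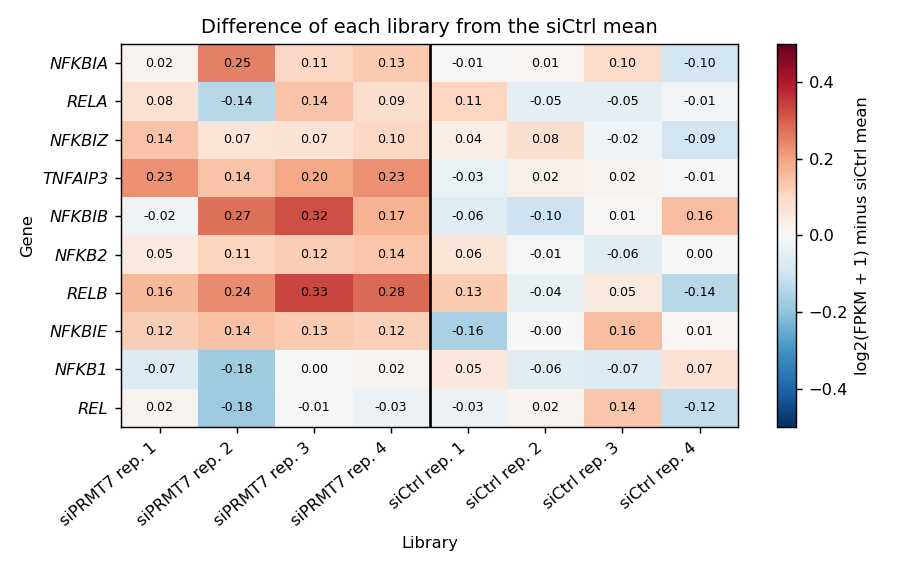
Difference of each library from the siCtrl mean in log2(FPKM + 1), with 1 row per gene and 1 column per library, siPRMT7 left of siCtrl. TNFAIP3 and RELB are above 0 in all siPRMT7 libraries by 0.14 or more, and siPRMT7 replicate 2 combines high NFKBIA and NFKBIB with low RELA, NFKB1 and REL.

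Since FPKM is a level per gene length, levels were also added across genes to compare the balance of the family within each library. The size of each ratio thus depends on the annotated lengths, which are the same in all libraries. The summed level of RELB and NFKB2, the noncanonical pair, over that of RELA and NFKB1, the canonical pair, was 0.642, 0.776, 0.667 and 0.679 in siPRMT7 replicates 1 to 4, against 0.616, 0.629, 0.634 and 0.588 in siCtrl replicates 1 to 4. Every siPRMT7 library was above every siCtrl library. The means were 0.691 ± 0.0585 in siPRMT7 and 0.617 ± 0.0208 in siCtrl libraries (SD, n = 4 each), which gave the smallest p that a two-sided exact permutation test allows here (0.0286, and 0.0857 adjusted over 3 ratios). Without siPRMT7 replicate 2 the siPRMT7 mean was 0.663 ± 0.0187 (SD, n = 3), the difference was 0.0461 in place of 0.0744, and the groups still did not overlap (exact p = 0.0571, the smallest that 35 assignments allow). This ratio does not depend on how libraries are scaled to each other. It is built from the gene values given above, and was chosen with earlier results of these data known. It therefore adds no separate support to them.

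RELA made up 73.8, 69.9, 72.2 and 72.2% of the summed RELA, RELB and REL levels in siPRMT7 replicates 1 to 4, against 74.7, 74.9, 73.5 and 77.0% in siCtrl replicates 1 to 4. The groups overlapped in 1 library of each, siPRMT7 replicate 1 and siCtrl replicate 3 (exact permutation p = 0.0571, adjusted p = 0.0857). NFKBIA, NFKBIB and NFKBIE together, over the 5 subunits, came to 1.06, 1.32, 1.09 and 1.10 in siPRMT7 replicates 1 to 4, against 0.987, 1.11, 1.19 and 1.08 in siCtrl replicates 1 to 4. These values overlapped (exact permutation p = 0.600), and the high value belonged to siPRMT7 replicate 2, the library with the highest ribosomal protein share. The part of that library's other differences in its ratio was not tested.

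**Figure D4:**
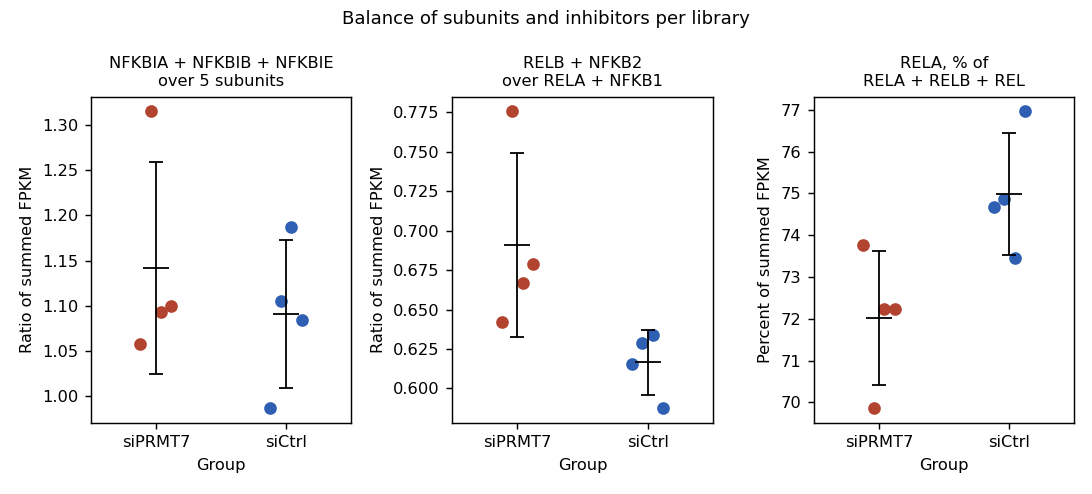
Ratios of summed FPKM per library, with 1 point per library, siPRMT7 left of siCtrl, and mean ± SD of 4 libraries in black; the vertical axes do not start at 0. The ratio of RELB and NFKB2 to RELA and NFKB1 is 0.642 or more in siPRMT7 and at most 0.634 in siCtrl libraries, and the other 2 ratios overlap.

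Around the family, 5 lists of pathway genes were read from the same fit, and 0 of their members passed an adjusted p of 0.05 in either direction. Among target genes outside the family 29 of 34 were tested and 27 of these had a positive log2 fold change, the median being 0.21. At an unadjusted p under 0.05 there were 17 higher and 0 lower, and 12 were higher without overlap, against 7.67% and 4.14% of all genes tested. TAP1, a peptide transporter of antigen presentation, had 32.0 ± 0.533 FPKM in siPRMT7 and 26.8 ± 0.822 FPKM in siCtrl libraries (SD, n = 4 each, limma, adjusted p = 0.101). EFNA1, the ligand ephrin-A1, had 9.79 ± 0.549 and 7.16 ± 0.577 FPKM in siPRMT7 and siCtrl libraries, also with an adjusted p of 0.101 in limma. With library weights both passed in limma (adjusted p = 0.0326 for TAP1 and 0.0369 for EFNA1), and EFNA1 passed among protein-coding genes alone (adjusted p = 0.0485). IRF1, a transcription factor, had 6.81 ± 0.511 FPKM in siPRMT7 and 5.56 ± 0.156 FPKM in siCtrl libraries. The chemokine CXCL10 had 1.75 ± 0.289 and 0.874 ± 0.280 FPKM in siPRMT7 and siCtrl libraries. CXCL10 reached the 1 FPKM of the filter in every siPRMT7 library but not in every siCtrl library. Few fragments lay behind its siCtrl values, so the size of its difference is uncertain. TAP1, IRF1 and CXCL10 are also known as interferon-induced genes. The siPRMT7 libraries lay above all siCtrl libraries for each of these 4 genes.

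Other inhibitors and brakes had a median log2 fold change of 0.05 over 20 tested of 23, with 13 higher and 5 of these without overlap, where 49.5% of all genes tested were higher and 4.14% higher without overlap. On the TPM scale 11 were higher, 2 of them without overlap (3.1% of all genes), and 1 was lower without overlap (5.59% of all genes). Among them, TNIP1, a partner of A20, had 49.3 ± 0.752 FPKM in siPRMT7 and 44.6 ± 1.31 FPKM in siCtrl libraries (SD, n = 4 each, limma, adjusted p = 0.211). SIGIRR, an inhibitory receptor of the interleukin-1 family, had 7.54 ± 0.519 and 6.29 ± 0.327 FPKM in siPRMT7 and siCtrl libraries. BCL3, a nuclear IkB protein that binds p50 and p52, had 15.3 ± 0.758 and 13.7 ± 0.418 FPKM in siPRMT7 and siCtrl libraries. COMMD1, which promotes removal of RELA from DNA, had 5.04 ± 0.782 and 3.84 ± 0.333 FPKM, but shares 922 of 2392 exonic bases with other genes, so its level is uncertain. All 4 were without overlap, and none passed over all genes.

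The adaptors and ubiquitin ligases had a median of 0.05, with 17 of 24 higher (49.5% of all genes) and 2 of them without overlap (4.14% of all genes). On the TPM scale 13 of the 24 were higher, 2 of them without overlap (3.1% of all genes). There 1 was lower without overlap (5.59% of all genes). RBCK1 (HOIL-1), a subunit of the linear ubiquitin ligase, had 72.9 ± 1.87 FPKM in siPRMT7 and 64.99 ± 1.86 FPKM in siCtrl libraries (SD, n = 4 each, limma, adjusted p = 0.189). The scaffold SQSTM1 (p62) had 187 ± 8.50 and 167 ± 3.25 FPKM in siPRMT7 and siCtrl libraries, and shares 1687 of 7654 exonic bases with genes on the opposite strand. TRADD, the adaptor of TNF receptor 1, had 18.5 ± 3.01 and 15.7 ± 0.793 FPKM, and TRAF4 had 7.46 ± 0.448 and 6.69 ± 0.251 FPKM, in siPRMT7 and siCtrl libraries. For both of these the groups overlapped, and the highest TRADD value, 22.7 FPKM, was that of siPRMT7 replicate 2.

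The IKK complex and kinases were the 1 list with a negative median (-0.02), with 14 of 20 lower (50.5% of all genes). Without siPRMT7 replicate 2, 10 of the 20 were higher and the median was -0.0012. At an unadjusted p under 0.05 there were 1 lower (5.49% of all genes) and 0 higher, a share near that of all genes. MALT1, a protease and scaffold upstream of IKK, had 7.92 ± 0.226 FPKM in siPRMT7 and 8.71 ± 0.369 FPKM in siCtrl libraries (SD, n = 4 each, limma, adjusted p = 0.310) and was lower without overlap (4.43% of all genes). On the TPM scale 5 of the 20 were higher, and 0, MALT1 included, were higher or lower without overlap (3.1% and 5.59% of all genes). IKBKG (NEMO), the regulatory subunit of IKK, had 5.24 ± 0.952 and 6.05 ± 0.799 FPKM in siPRMT7 and siCtrl libraries with overlap. A near-identical pseudogene copy of IKBKG makes its value uncertain. RIPK1 had 13.1 ± 0.406 and 12.5 ± 0.352 FPKM and IRAK2 17.4 ± 1.31 and 16.3 ± 0.924 FPKM, in siPRMT7 and siCtrl libraries, both with overlap.

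Of 21 receptors 11 were tested, with a median of 0.06 and 7 higher (49.5% of all genes). TNFRSF12A, the receptor of TWEAK, a cytokine known to activate the noncanonical branch, had 130, 166, 164 and 151 FPKM in siPRMT7 replicates 1 to 4, against 123, 126, 139 and 119 FPKM in siCtrl replicates 1 to 4. Of its siPRMT7 libraries 3 exceeded all siCtrl libraries (limma, adjusted p = 0.269, with a log2 fold change of 0.26). TNFRSF1A, the main TNF receptor, had 36.2 ± 1.71 and 34.0 ± 0.770 FPKM in siPRMT7 and siCtrl libraries (SD, n = 4 each). LTBR, the lymphotoxin receptor, had 31.7 ± 1.02 and 30.3 ± 0.785 FPKM, and the TRAIL receptor TNFRSF10A had 10.7 ± 0.903 and 9.85 ± 0.633 FPKM, in siPRMT7 and siCtrl libraries. The groups overlapped for all 4 receptors. Among the pathway genes named, IRF1 (1716 of 7799 exonic bases), MALT1 (1065 of 11527), TRAF4 (777 of 4596), TNFRSF10A (490 of 2951), TAP1 (456 of 4805), LTBR (422 of 6280), IKBKG (342 of 3529), RIPK1 (238 of 4231), TRADD (126 of 2567) and TNFRSF12A (40 of 1848) also share bases with genes on the opposite strand.

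**Figure D5:**
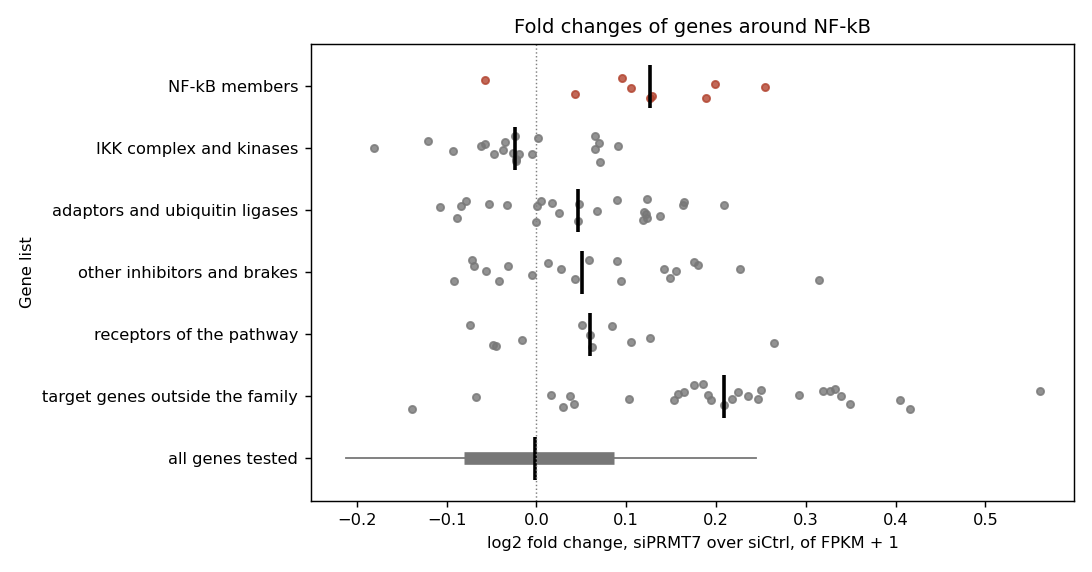
Log2 fold changes of FPKM + 1, siPRMT7 over siCtrl, with 1 point per tested gene and a black bar at the median of each list; the bottom row gives the median, the middle 50% and the middle 90% of all 13436 genes tested. The medians are 0.21 for target genes, 0.13 for the family and -0.02 for the IKK list.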

How the data were processed

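The authors' deposited table gives FPKM values per gene and library. Reads passed through cutadapt 2.5, HISAT2 2.1.0 and featureCounts 1.6.3, per the submitters' processing notes. The same notes name a mouse build, but coordinates in the table matched human GENCODE release 29 (GRCh38) for all genes checked. The strand setting of the counting is not stated. FPKM times gene length was a whole multiple of 1 step per library for 100% of values above 0 (tolerance 0.01 fragments), which gave fragment counts. In these values the library size behind FPKM was proportional to a median-ratio size factor, a step that no label records. Counting errors cover counting noise only.

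The test was limma 3.58.1 (R 4.3.3, variance trend, two-sided) on log2(FPKM + 1). Genes needed FPKM of 1 or more in 4 libraries or more, which left 13436, and p-values were adjusted over these by Benjamini-Hochberg (threshold 0.05). Fold changes on this scale understate changes of low genes. Ratios were tested by exact permutation in scipy 1.17.1.

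The members, the 5 lists and the tests were chosen with earlier results of these data known. From each list the 4 tested genes with the smallest p were named, together with PRMT7 and all members. The symbol SOD2 stands on more than 1 row, and the row with the highest level was used. The alternatives were other pseudocounts (0.1 and 0.5), filters, scalings, variance models, voom on rebuilt fragments, a replicate block, protein-coding genes alone and leaving out each library. TPM scaling without siPRMT7 replicate 2 was chosen after seeing the data.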

Additional observations from a re-analysis of the deposited data

Results flagged for a closer look

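Among 68 groups of 4 libraries examined, 2 had a library far from the other 3 for its range, and chance alone sets apart about 1 group in 20. The summed level of NFKBIA, NFKBIB and NFKBIE over the 5 subunits was 1.32 in siPRMT7 replicate 2, where the other siPRMT7 libraries had 1.06, 1.09 and 1.10. TRAF4 was at 7.06 FPKM in siCtrl replicate 4, where the other siCtrl libraries had 6.52 to 6.59 FPKM.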

How the results depend on the processing

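Of the 9 tested members 0 passed as reported and under every alternative but library weights, where 1 passed (TNFAIP3). Of the target genes TAP1 and EFNA1 passed with library weights, and EFNA1 for protein-coding genes alone. The sign of each tested member's fold change held under all alternatives run. Members without overlap numbered 0 on the TPM scale and 2 to 5 with a library left out, and 2 otherwise. The median log2 fold change of the members was 0.0862 on the TPM scale, 0.0906 on that scale without siPRMT7 replicate 2 and 0.0955 with quantile normalization, and ran from 0.11 to 0.16 with a library left out (0.16 without siCtrl replicate 3). The TPM scale moved the median of all genes to -0.04. On it the list medians were 0.01 for adaptors, 0.01 for brakes, 0.02 for receptors, -0.06 for IKK and 0.17 for target genes. Over all genes 2 were called as reported, 1 with a pseudocount of 0.1, with FPKM at least 5 or with quantile normalization, 5 with no filter, 11 for protein-coding genes alone, 12 with voom, 58 with library weights and 0 to 2 with a library left out. The cause was not tested. The inhibitor ratio differed by 0.0505 as reported (siPRMT7 minus siCtrl), and by -0.00736 to 0.0826 with a library left out, the negative value without siPRMT7 replicate 2. The difference in the RELB and NFKB2 ratio ran from 0.0461 to 0.0906 and that in the RELA share from -3.55 to -2.25 percentage points.

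With the replicate number as a block 0 genes were called, and the adjusted p of TNFAIP3 was 0.323. Deviations of same-numbered libraries correlated at -0.0314 to 0.0613, and not every siPRMT7 library correlated best with its own number, so the numbers do not show a pairing. REL, with 40 fragments at the lowest, is the member whose depth limits a comparison most.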

Other observations

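Target genes outside the naming rule were singled out after their values were seen. GADD45B, a stress-induced gene, had 64.9 FPKM on average in siPRMT7 and 51.1 FPKM in siCtrl libraries. The chemokine genes CXCL2 and CXCL3 averaged 13.2 and 5.18 FPKM in siPRMT7 libraries, against 10.3 and 3.84 FPKM in siCtrl libraries. CCL5 averaged 15.7 FPKM in siPRMT7 and 11.5 FPKM in siCtrl libraries. For each of these 4 genes the siPRMT7 libraries lay above all siCtrl libraries, as for 4.14% of all genes tested. None of the 4 passed over all genes in limma. On the TPM scale 24 of the 29 target genes were higher, 11 of them without overlap (3.1% of all genes on that scale). Among the brakes, N4BP1 was the remaining gene higher without overlap, with 14.3 FPKM in siPRMT7 and 13.4 FPKM in siCtrl libraries.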
